A study of Mus musculus with 27 samples.

Results

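The 9 genes described here carry iodide into the thyroid follicle and build thyroid hormone there: Tg, Slc5a5, Slc26a4, Slc26a7, Slc5a8, Duox2, Duoxa1, Duoxa2 and Iyd. They were taken by name from a table of 54532 gene rows, and all 9 were found and passed the filter on low counts in each comparison. Counts came from the 3′ ends of polyadenylated transcripts in mouse thyroid dissected under a microscope with a laser. NCT libraries came from thyroid of mice that were not exposed to radiation, NT libraries from normal tissue beside the abnormal areas in exposed mice, and PL libraries from the proliferative lesions. Each group had 9 libraries, 6 of females and 3 of males, and each NT library had a PL library of the same mouse, so that 18 mice were studied. Dose, strain, age and the time after exposure are not in the labels, and no genotype is named for any group.

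Iodide enters the follicular cell through the sodium-iodide symporter (Slc5a5) in its basolateral membrane and leaves it for the follicle lumen across the apical membrane, where pendrin (Slc26a4) and other anion transporters lie. At that membrane the oxidase DUOX2, which needs a maturation factor of the DUOXA family, supplies the hydrogen peroxide with which iodide is oxidised. Iodide is then fixed on tyrosines of thyroglobulin (Tg), the protein from which the hormone is later cut, and the deiodinase of Iyd recovers iodide from the tyrosines left over. Thyrotropin, acting through its receptor and cyclic AMP, is known to drive much of this programme.

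Libraries held 2923851 to 14148601 counts. Levels are CPM, counts relative to library size, after scaling by the trimmed mean of M values (TMM), and a change is called where edgeR's quasi-likelihood test gave a Benjamini-Hochberg adjusted p below 0.05 over all genes tested. Tissue of this kind holds several cell types, so fewer cells of a type and less RNA per cell cannot be told apart. Pth, the parathyroid hormone gene, or Lipf, a lipase gene, exceeded 2000 CPM in 6 libraries (NCT replicates 5, 8 and 9, NT replicates 7 and 9, PL replicate 2). Bpifa1, a gene of airway lining, exceeded 5000 CPM in NT replicates 7, 8 and 9. The follicular marker Tg was present in all 27 libraries.

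The stretches of 250 bases before the annotated starts of 4 of the genes follow, from RefSeq on GRCm38.p6, in the direction of transcription. Slc5a8 and Duoxa1 are shown because both were lower in lesions than in the normal tissue of the same mouse. Duoxa2 is shown because its change in lesions had the opposite sign to that of its neighbour Duoxa1, though no comparison called both. Slc5a5 is shown because its change over mice resembled that of Duoxa2. Capitals mark matches, on either strand, to the TATA box letters TATAAA or the GC box letters GGGCGG.
Slc5a8, chr10:88885742-88885991, plus strand: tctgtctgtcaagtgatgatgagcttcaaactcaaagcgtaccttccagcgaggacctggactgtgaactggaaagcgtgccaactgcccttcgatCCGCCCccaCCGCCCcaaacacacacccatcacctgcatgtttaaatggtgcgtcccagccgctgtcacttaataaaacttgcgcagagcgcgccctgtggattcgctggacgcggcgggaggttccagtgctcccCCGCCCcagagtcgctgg
Duoxa1, chr2:122313731-122313980, minus strand: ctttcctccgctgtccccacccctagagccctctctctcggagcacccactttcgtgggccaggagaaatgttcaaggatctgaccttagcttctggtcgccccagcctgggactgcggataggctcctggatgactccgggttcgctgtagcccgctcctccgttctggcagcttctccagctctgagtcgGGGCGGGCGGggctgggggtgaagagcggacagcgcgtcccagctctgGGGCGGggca
Duoxa2, chr2:122298650-122298899, plus strand: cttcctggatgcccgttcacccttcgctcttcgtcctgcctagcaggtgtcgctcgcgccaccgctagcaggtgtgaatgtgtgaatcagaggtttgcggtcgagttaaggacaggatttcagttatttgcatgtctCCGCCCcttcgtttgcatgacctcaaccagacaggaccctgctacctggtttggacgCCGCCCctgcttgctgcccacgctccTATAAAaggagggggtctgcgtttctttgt
Slc5a5, chr8:70892758-70893007, minus strand: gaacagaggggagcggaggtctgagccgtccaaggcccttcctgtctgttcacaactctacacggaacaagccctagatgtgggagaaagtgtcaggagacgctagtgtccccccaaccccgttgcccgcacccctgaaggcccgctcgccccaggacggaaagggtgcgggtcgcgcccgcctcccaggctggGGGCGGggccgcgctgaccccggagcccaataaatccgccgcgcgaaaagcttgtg
Each of the 4 windows holds GGGCGG, which 32.7% of the 32851 promoter windows of this length also hold, and that of Duoxa2 also holds TATAAA, found in 12.4% of all windows. The letters CTCAAG, a core bound by the thyroid factor NKX2-1, and TGACG, one arm of the cyclic AMP response element, do not occur in these 4 windows on either strand. Entries were found for 7 of the 9 genes. Among these 7 windows GGGCGG occurs only in the 4 shown, and TATAAA in those of Slc26a4, Duoxa2 and Iyd. CTCAAG occurs in those of Slc26a4 and Duox2 (13.3% of all windows) and TGACG in that of Iyd (17.8% of all windows). A match describes letters only and marks no bound site.

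**Figure D1:**
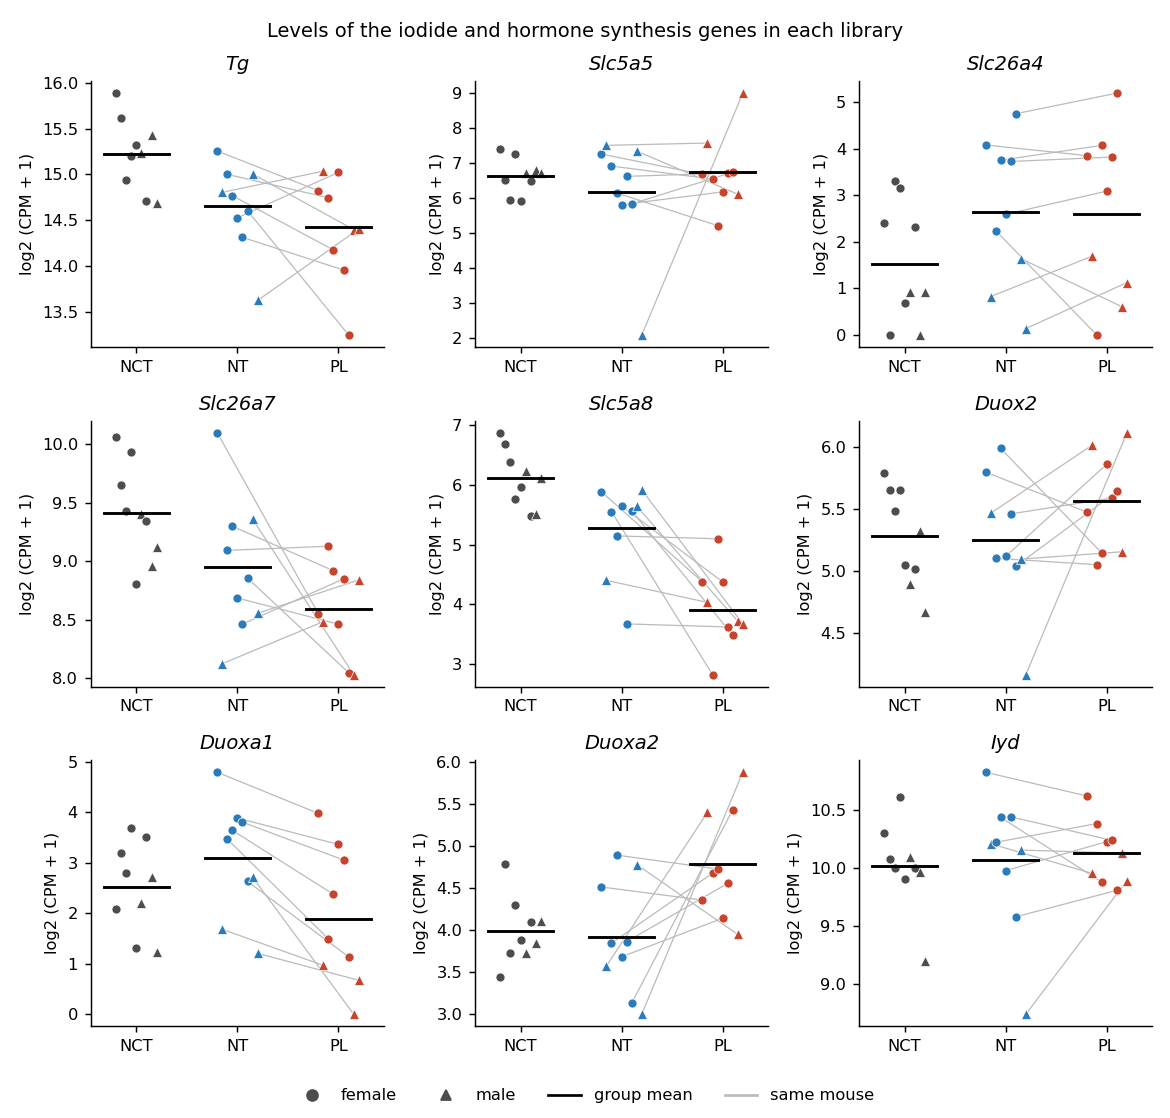
Level of each gene in every library as log2 (CPM + 1), by group, with circles for females, triangles for males, bars for group means and grey lines joining the NT and PL libraries of a mouse. Each panel has its own axis. The NCT and PL levels do not overlap for Slc5a8, and the Duoxa1 line falls in all 9 mice.

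Lesions were first set against thyroid of non-exposed mice, which are different animals. Of the 9 genes, 3 were lower in PL (Slc5a8, Slc26a7 and Tg), 1 was higher (Duoxa2), and 5 did not pass. Of all 14234 genes tested in that comparison 10.1% were called, 4.62% lower and 5.45% higher. The median log2 change of the 9 genes was 0.078, beside 0.0038 over all genes. Against NT of the same mouse, 2 of the 9 were called, both lower in lesions (Slc5a8 and Duoxa1), where 3.08% of 14461 genes were called and 1.31% were called lower, and the median of the 9 was 0.050 beside 0.0025. Between NT and NCT edgeR called none of the 9 and DESeq2 called none, 2 were below an unadjusted p of 0.05 with either tool, and 0.0277% of 14447 genes were called by edgeR. The 3 comparisons share libraries, so their values are not independent of each other.

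**Figure D2:**
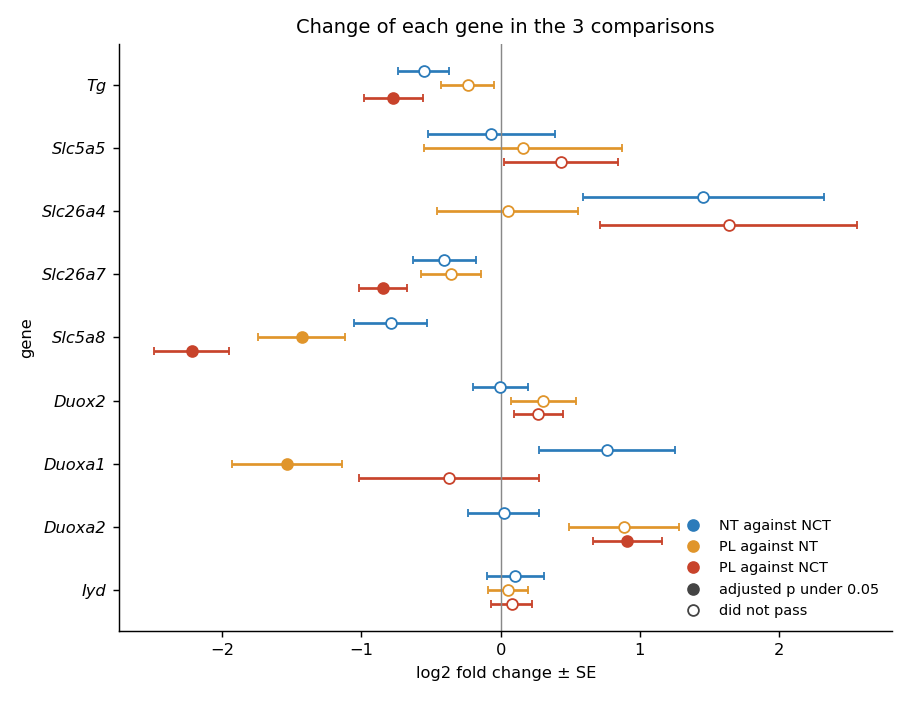
Log2 fold change of each gene with its standard error (SE) in the 3 comparisons. Filled points passed an adjusted p of 0.05 in edgeR. Slc5a8 lies farthest to the left in the comparison of PL with NCT, at -2.22, and Duoxa2 is the filled point to the right of 0, at 0.91.

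Tg (chr15:66670753-66850721, plus strand) encodes thyroglobulin, the scaffold on which hormone is made. Its level ran from 26495 to 60593 CPM in NCT (median 38534), from 12637 to 39115 in NT (median 27909) and from 9736 to 33594 in PL (median 21694). All 9 PL libraries were below the NCT median, though the groups overlapped. The mean was 39648 ± 11060 CPM in NCT and 23421 ± 8079 in PL (SD, n = 9 each), and the log2 change in the edgeR fit was -0.77 (SE 0.21, adjusted p = 0.0210). Without NCT replicate 1, which held the highest level of Tg, the change was -0.67 and the edgeR adjusted p 0.0509. In females alone it was -0.90 with an edgeR adjusted p of 0.0795, and with no filter on low counts -0.75 with an adjusted p of 0.0511. NT lay between the others at 26984 ± 7781 CPM (SD, n = 9). It differed from NCT by -0.55 (SE 0.18, edgeR adjusted p = 0.254) and PL differed from it by -0.24 (SE 0.19, edgeR adjusted p = 0.567). Neither of these steps passed, and 6 of 9 mice had less Tg in the lesion than in NT. Sla and the antisense gene Gm17140 lie on the other strand within Tg, with 10919 and 3386 counts in all beside 5592983 for Tg.

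Slc5a5 (chr8:70882889-70892757, minus strand) encodes the sodium-iodide symporter, the entry step for iodide. Levels ran from 58.9 to 168 CPM in NCT (median 103), from 3.21 to 179 in NT (median 96.4) and from 35.8 to 506 in PL (median 100). The medians were close and the groups overlapped. The lowest and the highest of all 27 values came from the NT and PL libraries of mouse 9, at 3.21 and 506 CPM. Slc5a5 did not pass in any comparison: PL against NT gave 0.16 (SE 0.71) and PL against NCT 0.43 (SE 0.41), with edgeR adjusted p = 0.938 and 0.581. Without mouse 9 the signs turned, to -0.22 and -0.13, and neither passed. In the other 8 mice the lesion was above NT in 4 and below it in 4. NT replicate 9 also had the lowest Tg of the NT libraries and held 25924 CPM of Pth and 5863 CPM of Bpifa1. The part of that tissue in the value was not tested.

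Slc26a4 (chr12:31519827-31559969, minus strand) encodes pendrin, an apical exchanger of iodide and chloride. Its levels were low and spread widely: 0 to 8.88 CPM in NCT (median 0.903), 0.10 to 25.9 in NT (median 5.02) and 0 to 35.6 in PL (median 7.51). Exposed tissue held more in most libraries, but the groups overlapped throughout. In NT 7 libraries and in PL 7 libraries were above the NCT median, and the log2 changes against NCT were 1.46 in NT (SE 0.86, edgeR adjusted p = 0.540) and 1.64 in PL (SE 0.92, edgeR adjusted p = 0.304). No count was seen in NCT replicates 2 and 8 or in PL replicate 3, which allows up to 0.678, 0.440 and 0.495 CPM (3 counts, counting error only). PL and NT of the same mouse differed by 0.05 (SE 0.51, edgeR adjusted p = 0.973). That small difference turned to -0.50 without the mice with libraries above 2000 CPM of Pth or Lipf.

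Slc26a7 (chr4:14502430-14621805, minus strand) encodes another anion transporter of the follicular cell, known to be needed for normal iodide handling. It ran from 445 to 1067 CPM in NCT (median 676), from 278 to 1097 in NT (median 463) and from 261 to 559 in PL (median 375). Every PL library was below the NCT median. Its mean fell from 707 ± 210 CPM in NCT to 396 ± 101 in PL (SD, n = 9 each), a log2 change of -0.85 (SE 0.17, edgeR adjusted p = 0.00289). The call held with each of the 18 libraries left out, at -0.92 to -0.75. The mean in NT was 534 ± 246 CPM (SD, n = 9). NT differed from NCT by -0.40 (SE 0.23, edgeR adjusted p = 0.511), and PL differed from NT by -0.36 (SE 0.22, edgeR adjusted p = 0.429). The difference between the changes of Slc26a4 and Slc26a7, as log2 (CPM + 1), was 1.58 for NT and 1.90 for PL against NCT. Both had an exact permutation p adjusted over 12 partner tests of 0.0636. With a pseudocount of 5 they were 1.08 and 1.47 and passed.

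Slc5a8 (chr10:88885992-88929515, plus strand) encodes a monocarboxylate transporter of the apical membrane, first described as an iodide transporter of the thyroid. Its range lay lower in each group in turn: 43.8 to 116 CPM in NCT (median 68.6), 11.8 to 59.4 in NT (median 46.4) and 6.10 to 33.3 in PL (median 12.2). The NCT and PL levels did not overlap, which held for 0.457% of the genes tested in the downward direction. From 71.9 ± 24.9 CPM in NCT it fell to 15.5 ± 8.0 in PL (SD, n = 9 each), 4.66-fold lower (log2 -2.22, SE 0.27, edgeR adjusted p = 2.3e-05). The call held in females alone (-2.20), without the Pth or Lipf libraries (-2.34) and without each library in turn (-2.43 to -2.10).

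Within mice, Slc5a8 was lower in the lesion in 9 of 9, with a log2 change of -1.43 (SE 0.31, edgeR adjusted p = 0.0325) from 41.6 ± 16.4 CPM in NT. The drop was small in mice 4 and 6, at -0.05 on the log2 (CPM + 1) scale in both, and largest in mouse 3, at -2.73. The call was near the threshold: without mouse 1, 3, 7, 8 or 9 the change was -1.41, -1.25, -1.33, -1.35 or -1.30 and the edgeR adjusted p 0.0612, 0.0587, 0.0727, 0.0889 or 0.0622. Without the 3 mice above 5000 CPM of Bpifa1 it was -1.02 with an edgeR adjusted p of 0.296. In females alone it was -1.34, without the Pth or Lipf mice -1.32 and with no filter -1.43, with edgeR adjusted p of 0.244, 0.167 and 0.0785. NT against NCT gave -0.79 (SE 0.26, edgeR adjusted p = 0.264), with all 9 NT libraries below the NCT median. The difference between the changes of Slc5a8 and Slc5a5 was -2.31 for PL against NCT (exact permutation p adjusted over 12 tests 0.00839).

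C cell and airway transcripts moved in the same direction as Slc5a8. The summed level of 10 C cell markers, which include Calca and Scg2, ran from 1355 to 8575 CPM in NCT (median 3468), from 449 to 16975 in NT (median 1541) and from 78.7 to 18493 in PL (median 123). Of the 8 tested in lesions against NT, 5 were called lower and none higher. That of 10 airway markers, which include Bpifa1 and Scgb3a2, had medians of 1374 in NCT (373 to 15484), 1158 in NT (137 to 7191) and 72.6 in PL (35.6 to 537), and 6 of 9 tested were called lower against NT. Calca, Scg2, Bpifa1 and Scgb3a2 were at 0 in no library. NT replicates 5 and 6 held C cell sums of 449 and 460 CPM, with Slc5a8 at 49.1 and 11.8 CPM. Over the 27 libraries Slc5a8 had r = 0.87 with Pcsk2, a C cell marker. The highest C cell sums of NT and PL, 16975 and 18493 CPM, were of NT replicate 7 and PL replicate 2, both high in Pth. They include Chga, which is also on the parathyroid marker list and had 2073 ± 6110 CPM in PL (SD, n = 9). Calca alone ran from 660 to 6412 CPM in NCT, 306 to 5254 in NT and 20.7 to 329 in PL. Slc5a8 in PL replicate 2 was at 15.4 CPM. Other marker sums were also lower in lesions. That of 6 fibroblast markers had medians of 2244 CPM for NCT (1713 to 2896), 2055 for NT (1288 to 3390) and 1123 for PL (568 to 3021), with 3 of 6 called lower against NCT (Pdgfra, Lum and Dcn) and none called by edgeR against NT (3 below an unadjusted p of 0.05). That of 6 squamous epithelium markers had medians of 40.8 for NCT (13.8 to 66.7), 34.9 for NT (4.37 to 286) and 8.08 for PL (1.98 to 28.0), with 2 of 4 tested called lower against NCT (Krt5 and Spink5) and 1 of 4 against NT (Spink5). That of 10 adipocyte markers had medians of 1149 for NCT (565 to 5700), 468 for NT (284 to 1171) and 350 for PL (40.3 to 1578). Of these, edgeR called none of the 9 tested in any comparison (8 below an unadjusted p of 0.05 for NT and 8 for PL against NCT, 0 for PL against NT). Krt14 was at 0 in 1 NCT and 3 PL libraries, and Krt5, Col1a1, Col1a2, Adipoq and Plin1 were at 0 in none. The part of all these cells in the Slc5a8 result was not tested.

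Duox2, Duoxa2 and Duoxa1 lie side by side on chromosome 2. Duox2 (chr2:122279247-122298449, minus strand), the oxidase gene, and Duoxa2 (chr2:122298900-122302885, plus strand), whose product brings DUOX2 to the cell surface, start 450 bases apart and point away from each other. Duoxa1 (chr2:122302191-122313730, minus strand), the gene of the related factor best known as the partner of DUOX1, ends against Duoxa2, and the gene models overlap by 695 bases that hold the 3′ ends of both. The strand setting of the authors' counting is not given in the sources used here, so reads of the shared stretch cannot be assigned with certainty, and values of both maturation factors are uncertain to that extent.

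Duox2 ran from 24.4 to 54.5 CPM in NCT (median 39.0), from 16.9 to 62.6 in NT (median 33.8) and from 32.2 to 68.4 in PL (median 47.1). The groups overlapped and no change passed. PL differed from NT by 0.31 (SE 0.23, edgeR adjusted p = 0.547) and from NCT by 0.27 (SE 0.18, edgeR adjusted p = 0.380), and NT differed from NCT by -0.0040 (SE 0.20, edgeR adjusted p = 0.996).

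Duoxa2 ran from 9.91 to 26.7 CPM in NCT (median 13.8), from 7.02 to 28.7 in NT (median 13.4) and from 14.4 to 57.7 in PL (median 24.6). All 9 PL libraries were above the NCT median, and the ranges overlapped. Its mean rose from 15.5 ± 4.95 CPM in NCT to 29.4 ± 14.5 in PL (SD, n = 9 each), 1.88-fold (log2 0.91, SE 0.25, edgeR adjusted p = 0.0196). In females alone the change was 0.62 with an edgeR adjusted p of 0.219. Without the 4 libraries of these groups above 2000 CPM of Pth or Lipf it was 0.80 with an adjusted p of 0.137, and with the mouse number series as covariate 0.95 with an adjusted p of 0.0513. Within mice, the edgeR change from NT was 0.89 (SE 0.40, adjusted p = 0.274), higher in 6 of 9, and it was 0.13 without the mice that hold a library of that kind. Mice 9, 7 and 2 had the largest differences, 2.87, 2.30 and 1.83 on the log2 (CPM + 1) scale.

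Within mice the change of Duoxa1 had the opposite sign, though that of Duoxa2 did not pass and both genes fell in mice 1, 4 and 8. Its level ran from 1.35 to 11.8 CPM in NCT (median 5.57), from 1.30 to 26.7 in NT (median 10.1) and from 0 to 14.7 in PL (median 1.81). The group ranges overlapped widely, yet the lesion was below NT in 9 of 9 mice. The log2 change was -1.54 (SE 0.39, edgeR adjusted p = 0.0491), with means of 9.92 ± 7.78 CPM for NT and 4.45 ± 5.03 for PL (SD, n = 9 each). PL replicate 8 held no count, which allows up to 0.522 CPM (3 counts, counting error only).

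The Duoxa1 call lay at the threshold and rested on the pairing. Without the mouse as a block the change was -1.13 with an edgeR adjusted p of 0.461. It was also lost without mouse 1, 2, 3, 4, 6, 7 or 9, at -1.67, -1.57, -1.41, -1.55, -1.66, -1.47 or -1.57 and edgeR adjusted p of 0.0753, 0.0820, 0.117, 0.0976, 0.0563, 0.0973 or 0.0635. In females alone it was -1.30, without the Pth or Lipf mice -1.53 and without the Bpifa1 mice -1.18, with edgeR adjusted p of 0.139, 0.212 and 0.113. Against NCT, PL differed by -0.37 (SE 0.64, edgeR adjusted p = 0.791) and NT by 0.76 (SE 0.49, edgeR adjusted p = 0.571).

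The balance of the maturation factors shifted in each mouse. The log2 ratio of Duoxa1 to Duoxa2, from levels with 1 CPM added, had a mean of -0.83 ± 0.93 for NT and -2.90 ± 1.73 for PL (SD, n = 9 each). It was lower in the lesion in 9 of 9 mice, on average by -2.07 ± 1.12 (SD). The exact sign-flip permutation p was 0.0039, the smallest that 9 pairs allow, and 0.0234 adjusted over 12 tests. With each mouse left out the mean shift stayed between -2.24 and -1.85, and the adjusted exact permutation p between 0.0312 and 0.0469. Mice 2, 7 and 9 each hold a library above 2000 CPM of Pth. Their ratios were -1.89, -0.50 and -1.80 in NT and -4.44, -4.29 and -5.21 in PL. Mouse 3, without such a library, went from -0.38 to -3.18. The shift without mice 2, 7 and 9 as a set was not tested. NCT stood at -1.47 ± 0.80 (SD, n = 9), and neither exposed group differed from it after adjustment (0.64 for NT, adjusted exact permutation p = 0.185, and -1.43 for PL, adjusted exact permutation p = 0.0812). The ratio of Duox2 to Duoxa2 differed between PL and NT by -0.56 ± 0.79 (SD, n = 9; adjusted exact permutation p = 0.117).

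Mrc1 and Clec10a, genes known from macrophages, were among those with the pattern most like that of Duoxa1 (r = 0.72 and 0.79 over the 27 libraries). The summed level of macrophage markers over 6 genes was 235 to 447 CPM in NCT (median 313), 215 to 897 in NT (median 445) and 130 to 582 in PL (median 386). Of the 6, 1 was called lower in PL against NT (Cd163) and none higher, and Cd68 and Adgre1 were at 0 in no library. Their part in the Duoxa1 result was not tested.

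Iyd (chr10:3540240-3554877, plus strand) encodes iodotyrosine deiodinase, which recycles iodide. Its medians lay close together, with levels from 586 to 1560 CPM in NCT (median 1021), 425 to 1811 in NT (median 1180) and 893 to 1572 in PL (median 1116). The groups overlapped. The changes were 0.11 for NT against NCT (SE 0.20), 0.05 for PL against NT (SE 0.14) and 0.08 for PL against NCT (SE 0.15), with edgeR adjusted p = 0.881, 0.901 and 0.812.

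**Figure D3:**
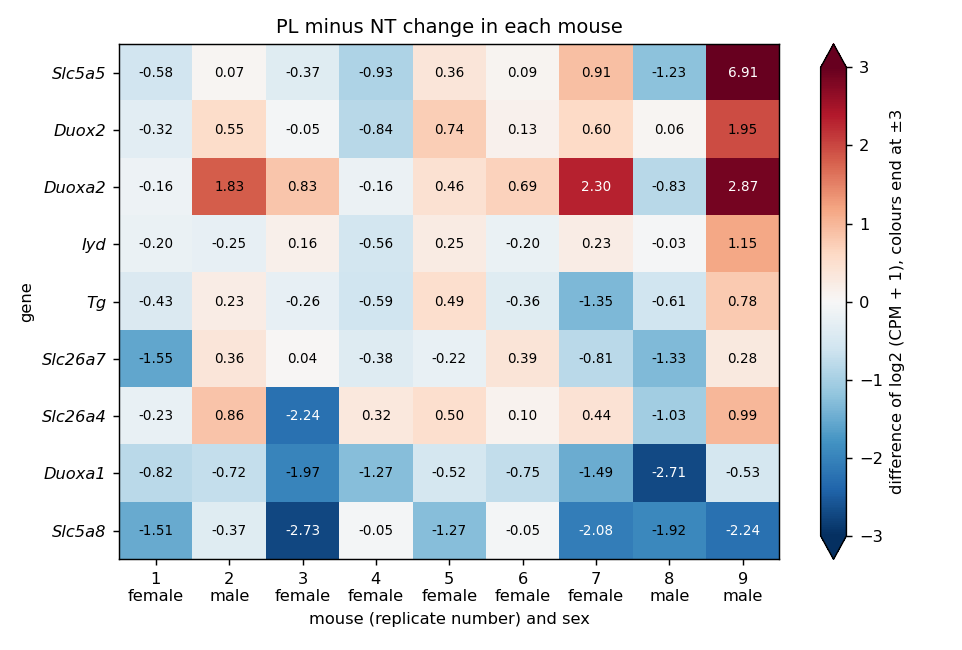
Difference between PL and NT of each mouse for each gene, on the log2 (CPM + 1) scale, with red for higher and blue for lower in the lesion. The rows of Duoxa1 and Slc5a8 are negative in all 9 mice, and mouse 9 holds the highest values of Slc5a5 (6.91) and Duoxa2 (2.87).

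Some of the genes shifted together from mouse to mouse. Of 36 gene pairs compared over the 9 mice, 3 passed after adjustment of the exact permutation p for Pearson's r. The change of Slc5a5 went with that of Duoxa2 (r = 0.77, adjusted exact permutation p = 0.0134, Spearman's rho 0.85, adjusted p = 0.109) and with that of Duox2 (r = 0.88, adjusted exact permutation p = 0.0300, rho 0.87, adjusted p = 0.109). That of Duox2 went with that of Iyd (r = 0.90, adjusted exact permutation p = 0.0300, rho 0.77, adjusted p = 0.154). Leaving out the 2 mice farthest from the median left r at 0.79, 0.90 and 0.44. Mouse 9 stood far from the others, and without it the 3 values of r were 0.86, 0.75 and 0.72, and none of the 36 pairs passed (adjusted exact permutation p = 0.237, 0.306 and 0.306). The 3 values of r stayed high with that mouse left out, while in the 8 mice left no adjusted p passed (unadjusted exact permutation p = 0.0066, 0.0296 and 0.0434). Over the 9 NCT libraries none of the 36 pairs passed.

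For Slc26a4 and Duoxa1, mice that were high in NT were also high in PL. Over the 9 mice the NT and PL levels of Slc26a4 correlated with r = 0.82 and rho = 0.83 (exact permutation p adjusted over 9 genes 0.0410 and 0.0372), and those of Duoxa1 with r = 0.84 and rho = 0.90 (0.0410 and 0.0183). Without the 2 mice farthest from the median, r was 0.77 and 0.92. Since males were low in both genes, the 6 females were also taken alone: r was 0.88 for Slc26a4 and 0.92 for Duoxa1 (adjusted exact permutation p = 0.0187 and 0.0125), and rho 0.94 and 1.0 (adjusted exact permutation p = 0.0750 and 0.0250). The other 7 genes did not pass, and Slc5a8 had r = 0.00. These correlations were chosen after the data were seen.

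**Figure D4:**
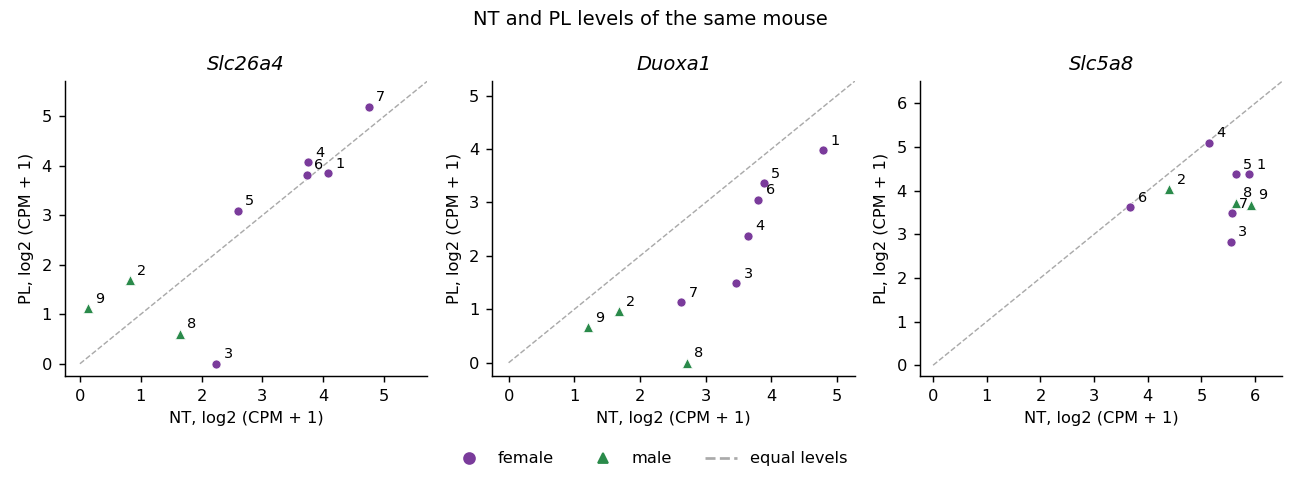
PL level against NT level of the same mouse, as log2 (CPM + 1), for Slc26a4, Duoxa1 and Slc5a8, with mice numbered and the dashed line marking equal levels. For Slc26a4 mouse 3 is farthest from the line (-2.24), with mice 8, 9 and 2 off it by -1.03, 0.99 and 0.86. Duoxa1 lies below it in all 9 mice while keeping the order of the females, and Slc5a8 shows no such order (r = 0.00).

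Males held little Slc26a4 in every group: at most 0.903 CPM for NCT, 2.12 for NT and 2.22 for PL (3 libraries each), while females had medians of 4.13, 12.4 and 13.3 CPM (6 each). In NT the sexes did not overlap, since the lowest female held 3.73 CPM, and in NCT and PL they did. A fit added after seeing the data, over 18 mice with the NT and PL counts of a mouse summed, put males below females by -3.44 (SE 0.78) with an edgeR adjusted p of 0.116, so that it did not pass. With each mouse left out in turn it passed in 1 of 18 fits (edgeR adjusted p from 0.0224 to 0.307). The fit that passed left out NCT replicate 2, a female with no count of the gene, and gave -3.51. Over all 18 mice Duoxa1 was the next, at -1.66 (SE 0.48, edgeR adjusted p = 0.332). In the fit over all 18 mice 0.127% of 16481 genes were called and none of the 9. Whether the change from NT to PL differed by sex was tested as an interaction, in which edgeR called none of the 9 genes and none of 14461, with 401 genes below an unadjusted p of 0.05.

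The other genes of the pathway were taken from lists chosen with earlier results of these data known. Of 10 tested channels and synthesis genes, edgeR called none in PL against NT, the median change being 0.069, and 2 were below an unadjusted p of 0.05. DESeq2 called 1 higher (Cyba) and 1 lower (Duox1), and edgeR called 1 higher in the fit without mouse 6 (Cyba) and 1 higher in that without mouse 9. Cyba, the common subunit of several NADPH oxidases, had a change of 0.73 from NT (SE 0.22, edgeR adjusted p = 0.0995), rose by 0.98 over NCT (SE 0.15, adjusted p = 0.000261) and differed by 0.32 between NT and NCT.

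Of 11 tested genes for thyroglobulin folding in the endoplasmic reticulum, 2 rose in lesions over NT and none fell, with a median change of 0.40. Of all genes tested there, 1.76% were called higher. They were Pdia6 (0.60, SE 0.14, edgeR adjusted p = 0.0343) and Pdia3 (0.57, SE 0.15, edgeR adjusted p = 0.0496), both protein disulfide isomerases. Against NCT, where 5.45% of all genes tested were called higher, 5 rose (P4hb, Calr, Pdia4, Pdia3 and Pdia6), by 0.48 to 0.66, and none fell. Tg, the main client of these proteins in this tissue, was lower in that comparison.

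Of 14 tested genes for uptake and breakdown of thyroglobulin and for hormone release, 3 rose over NT and none fell, with a median of 0.35. Ctsl rose from 409 ± 213 to 1016 ± 590 CPM (SD, n = 9 each; log2 1.27, SE 0.17, edgeR adjusted p = 0.00537) and Ctsb from 838 ± 305 to 1912 ± 731 CPM (1.20, SE 0.20, edgeR adjusted p = 0.00937), both higher in 9 of 9 mice. These encode cathepsins, proteases that cut thyroglobulin. Lrpap1, a chaperone of endocytic receptors such as megalin, rose by 0.47 (SE 0.12, edgeR adjusted p = 0.0498). Against NCT, 4 of 12 rose (Ctsb, Lrpap1, Ctsl and Ctsd) and 1 fell, beside 5.45% of all genes tested called higher and 4.62% lower. The 1 that fell was Slc16a10, a transporter of aromatic amino acids and thyroid hormone (-1.61, SE 0.30, edgeR adjusted p = 0.00111).

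Of 11 tested regulators, 3 rose over NT and none fell, with a median of 0.57. Tshr, the thyrotropin receptor, changed by 1.40 (SE 0.23, edgeR adjusted p = 0.0117). Glis3, a transcription factor needed for the thyroid's answer to thyrotropin, rose from 12.7 ± 3.71 to 22.5 ± 5.37 CPM (SD, n = 9 each; 0.84, SE 0.21, edgeR adjusted p = 0.0413). Crem, a modulator of cyclic AMP responsive genes, rose by 0.55 (SE 0.14, edgeR adjusted p = 0.0446). All 3 were higher in 9 of 9 mice. Against NCT 4 of 11 rose (these 3 and Hhex), beside 5.45% of all genes tested. Between NT and NCT none of the genes of the 4 lists passed in edgeR, with 1 of 11, 1 of 11, 4 of 13 and 1 of 11 below an unadjusted p of 0.05 in the order above. DESeq2 called 1 of them, the thyroid transcription factor Pax8, lower in NT (-0.40, SE 0.11, DESeq2 adjusted p = 0.0368).

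The rises over NT differed in how firmly they held. Ctsl, Ctsb and Tshr passed in edgeR with each of the 9 mice left out in turn. Pdia6 passed in 3 of these 9 fits (without mouse 1, 5 or 6; highest adjusted p 0.0960), Crem in 2 (without mouse 5 or 9; 0.0992), and Glis3 (without mouse 6; 0.0981), Pdia3 (without mouse 6; 0.123) and Lrpap1 (without mouse 3; 0.124) in 1. In females alone none of the 8 passed. Without the Bpifa1 libraries none passed either, and without the Pth or Lipf libraries only Ctsl and Ctsb did. Against NCT, Ctsd passed in 7 and Hhex in 8 of the 18 fits with 1 library left out, while the other named genes passed in all 18.

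Several rises over NCT were lost when libraries were left out as a set. In females alone 1 of the folding genes, 1 of the uptake and release genes and 1 of the regulators still rose (P4hb, Ctsb and Tshr). Without the Pth or Lipf libraries the numbers were 2, 1 and 1, with Calr added. The fall of Slc16a10 passed in both settings. Without those libraries the changes of Crem, Glis3 and Hhex were 0.78, 0.71 and 0.53, with edgeR adjusted p = 0.102, 0.133 and 0.209. Those of Ctsl, Ctsd and Lrpap1 were 0.98, 0.55 and 0.60, with edgeR adjusted p = 0.104, 0.146 and 0.0536. Those of Pdia3, Pdia4 and Pdia6 were 0.41, 0.47 and 0.47, with edgeR adjusted p = 0.0894, 0.0563 and 0.141. In females these 9 genes had adjusted p from 0.137 (Ctsl) to 0.364 (Pdia6). Each kept a positive change in both settings.

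Genes with the most similar pattern to each of the 9 were sought over the 27 libraries among 8731 others with a mean of at least 10 CPM, by Pearson's r of log2 (CPM + 1). These values share libraries, depth and the differences between groups, and serve as a description. Slc5a8 was most like St3gal5 (r = 0.94), the gene of GM3 synthase, whose mean level was 70.6 ± 20.7 CPM for NCT, 46.8 ± 11.4 for NT and 23.5 ± 7.45 for PL (SD over 9 libraries each). Jam3, a cell adhesion gene (0.88), and Pcsk2, the prohormone convertase on the C cell list (0.87), followed. Tg was most like Chchd10, a gene of a mitochondrial protein (0.86), Snhg18 (0.83) and Igfn1 (0.83).

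Slc5a5 was most like Elovl7, a fatty acid elongase (0.77), Pdxk, pyridoxal kinase (0.76), and the transcription factor Tfcp2l1 (0.74). Duoxa2 was most like Gclc, which makes the first enzyme of glutathione synthesis (0.80), then Dapk1 (0.75) and Tacc2 (0.70). Duoxa1 was most like Clec10a (0.79) and Mrc1 (0.72), lectins known from macrophages, and Cdk14 (0.70). Mrc1 is also on the macrophage list. Duox2 was most like Dpagt1 (0.72), Kcnj16 (0.70) and Gjb1 (0.70). Iyd was most like Aimp2 (0.84), Mif (0.83) and Myof (0.82), Slc26a7 most like Gipc2 (0.77), Fam189a2 (0.76) and Wwp1 (0.76), and Slc26a4 most like Slc16a6 (0.69), Srxn1 (0.66) and Socs2 (0.65).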

How the data were processed

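Laser-dissected mouse thyroid was measured in 27 libraries prepared with a QuantSeq 3′ kit, per the labels' protocols. The authors deposited whole-number read counts per gene, without normalization. Names given, per the submitters' processing notes, are STAR, featureCounts, DESeq2 and GRCm38, with no versions. Which annotation release, strand setting and treatment of molecular identifiers applied is not given in the sources used here, so reads of overlapping genes may be mixed and 3′ tags say little about isoforms.

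Rows were matched by identifier to GENCODE M21 (54495 of 54532), whose coordinates, counted from 1, are given. Comparisons were fitted with edgeR 4.0.16 in R 4.3.3 (filterByExpr with minimum count 10, TMM, robust quasi-likelihood F test, Benjamini-Hochberg adjustment over all genes tested). SE was taken as change over root F. PL against NT kept the mouse as a block, since the labels give both libraries 1 mouse number. Deviations of these pairs correlated at -0.01 to 0.24, above 0.1 in 6 of 9. The other comparisons had no covariate. Ratios and correlations used log2 (CPM + 1) and exact permutation. On simulated data for PL against NT (14461 genes), a random few genes were changed. Of those changed by 1 on the log2 scale 51% were recovered, and of those changed by 2 92.3%. Of the genes called, 4.96% were unchanged. The simulated counts held no differences between mice, so these shares do not measure what the pairing adds.

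The 9 genes and all lists were chosen with earlier results of these data known. Genes to be named were the 9, up to 4 called genes of each other pathway list by smallest p in PL against NT (or the best one), the 3 most similar genes of each of the 9, and the first 2 markers of lists that moved. Predicted genes were passed over. P4hb, Calr, Pdia4, Ctsd, Slc16a10, Hhex, Pax8, Duox1, Pdgfra, Lum, Dcn, Spink5, Cd163, Chga, Pcsk2, Sla and Gm17140 were also named after their values were seen. Some results of the pathway lists are not reported here. Alternatives were DESeq2 1.42.0, RLE size factors, no filter, no block, females only, sex or mouse number series as covariate, all 27 libraries in 1 fit, each library or mouse left out, libraries with high Pth, Lipf or Bpifa1 left out, and a pseudocount of 5.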

Additional observations from a re-analysis of the deposited data

Results flagged for a closer look

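In 27 groups of 9 libraries (9 genes in 3 groups), 5 held a highest value that stood apart from the rest by more than Dixon's criterion allows at 95%. The criterion was applied to CPM and not to log2 values. Its chance rate of about 1 in 20 groups holds only for normally distributed values. Slc26a4 in PL, for example, had a mean of 9.93 CPM and an SD of 11.4, so that rate is no guide here. Log2 values were not tested in this way. Slc5a5 in PL replicate 9 was at 505.6 CPM, with the next value at 187.5. Slc26a4 in PL replicate 7 was at 35.56 CPM, with the next at 15.79. Slc5a8 in PL replicate 4 was at 33.28 CPM, with the next at 19.8. In NT replicate 1, a female, Slc26a7 was at 1097 CPM (next 657) and Duoxa1 at 26.73 CPM (next 13.78).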

How the results depend on the processing

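DESeq2 called the same numbers of the 9 genes as edgeR (2 in PL against NT, 0 in NT against NCT, 4 in PL against NCT). In PL against NT the number fell to 1 with no filter on low counts and to 1 without the block for the mouse pairing, and to 0 in females alone, without the Pth or Lipf libraries and without the Bpifa1 libraries. It was 0 to 2 with a mouse left out. In PL against NCT it was 2 in females and 3 to 4 with a library left out. A fit of PL against NCT without Bpifa1 libraries was not needed, since neither group holds one.

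Over all genes, PL against NT gave 1360 calls with DESeq2, 832 with no filter, 402 without the block, 95 without the Pth or Lipf libraries, 46 without the Bpifa1 libraries, 6 in females and 137 to 529 with a mouse left out. NT against NCT gave 150 with DESeq2, 15 with no filter, 7 with the mouse number series as covariate, 1 in females, 1 without Pth or Lipf libraries, 34 without Bpifa1 libraries and 0 to 12 with a library left out. PL against NCT gave 450 in females, 797 without Pth or Lipf libraries and 1126 to 1655 with a library left out. Fits with fewer libraries have less power; the cause was otherwise not tested.

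Some changes that did not pass turned sign. In NT against NCT, Duox2 was 0.13 with the series as covariate, 0.0075 with no filter, 0.019 without Pth or Lipf libraries and 0.20 without Bpifa1 libraries, Slc5a5 was 0.049 with the series as covariate, 0.11 without Pth or Lipf libraries and 0.11 without Bpifa1 libraries, and Duoxa2 was -0.0040 in females. In PL against NCT, Iyd was -0.030 without Pth or Lipf libraries and Slc5a5 -0.29 in females. In PL against NT without Pth or Lipf libraries, Duox2 was -0.064, Iyd -0.11, Slc26a4 -0.50 and Slc5a5 -0.46. Without Bpifa1 libraries Iyd was -0.13, Slc26a4 -0.067 and Slc5a5 -0.22. In females Iyd was -0.061, Slc26a4 -0.14 and Slc5a5 -0.096, and without the block Iyd was -0.019. With 1 library or mouse left out, the ranges that crossed 0 were -0.12 to 0.094 (Duox2), -0.14 to 0.16 (Duoxa2), -8.3e-05 to 0.21 (Iyd) and -0.22 to 0.10 (Slc5a5) in NT against NCT. In PL against NCT Slc5a5 ran from -0.13 to 0.57. In PL against NT the ranges were -0.081 to 0.13 (Iyd), -0.14 to 0.36 (Slc26a4) and -0.22 to 0.36 (Slc5a5). With a pseudocount of 5 the Slc26a4 and Slc26a7 differences were 1.08 and 1.47 and passed. The Slc5a8 and Slc5a5 difference in PL against NT was -1.94 (adjusted exact permutation p = 0.0656) and -2.29 to -1.04 with a mouse left out, passing without mouse 4.

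Low counts limit Slc26a4 and Duoxa1 most: a change of their size can come from a few reads in libraries where the level is near 1 CPM.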

Other observations

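The number of the 9 genes that were higher in the lesion than in NT differed between mice. It was 0 in mouse 1, 1 in mice 4 and 8, 3 in mouse 3, 5 in mice 6 and 7, 6 in mice 2 and 5, and 7 in mouse 9. Mice 1, 3, 4, 5, 6 and 7 were females. Counts for the 9 genes together took 4.01% ± 1.16 of an NCT library, 2.97% ± 0.81 of an NT library and 2.50% ± 0.77 of a PL library (SD, n = 9 each). Most of these counts were of Tg (354475 of 370153 in NCT replicate 1 and 48741 of 55746 in PL replicate 7). The shares therefore mainly follow Tg and do not describe the other genes.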
